A study of Mus musculus with 15 samples.

Results

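The genes described here are the SOCS family, the suppressors of cytokine signalling Socs1, Socs2, Socs3, Socs4, Socs5, Socs6 and Socs7 together with the founding member Cish. They were chosen by name. Of the probe sets annotated to a member alone, the one with the highest mean over all 15 arrays stood for the gene. All 8 members had such a probe set, out of 18193 genes that had one, and all 8 were among the 13703 genes tested. A gene was tested when it lay above its array's 40th percentile, which was a log2 value between 4.34 and 4.52, on at least 3 arrays.

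The cells were mouse macrophages grown from bone marrow in M-CSF, the macrophage growth factor, for 7 days, and RNA was measured on one-colour arrays. The first group, M1, had been polarized with lipopolysaccharide (LPS) from E. coli and interferon-gamma. Of the groups polarized with IL4 and IL13, M2+nutlin-3a also received nutlin-3a, a small molecule that blocks the binding of MDM2 to p53, M2+10058F4 also received the MYC inhibitor 10058F4, and M2 received no agent. The M0 group was not treated. Each of the 5 groups had 3 arrays. All groups share the 7 days in M-CSF. The sources used here do not give the strain, doses, times, any vehicle in the M2 cells, or whether the biological replicates came from separate mice. The p-values therefore cover the spread among these arrays alone, which may be technical. The title of the series names the effect of p53 in polarized macrophages as its question.

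SOCS proteins are feedback brakes on receptors that signal through Janus kinases (JAK) and STAT transcription factors. Each has an SH2 domain, which binds phosphorylated tyrosine on a receptor or kinase, and a SOCS box, which recruits elongins and the cullin Cul5 to form a ubiquitin ligase. Several of the genes are themselves switched on by STAT factors, so the brake is made in response to the signal it limits. SOCS1 and SOCS3 also carry a short stretch that inhibits the kinase directly. In macrophages SOCS1 is known as a brake on interferon-gamma and IL4 signalling, and SOCS3 as a brake on signalling through the IL6 receptor chain gp130.

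Promoter sequences are shown for 3 members because they carry letters known as binding motifs of the factors these cytokines activate. RefSeq windows of the GRCm38.p6 build ran from 250 bases before to 50 bases after a transcript start. They were used for 4 of the 8 members, namely Socs1, Socs3, Socs4 and Cish. Both strands were searched for TTCNNNGAA, the motif bound by most STAT dimers, for TTCNNNNGAA, the wider spacing that STAT6 also binds, and for GAAANNGAAA, the motif of interferon regulatory factors. Capitals mark the matches, and each sequence runs 5′ to 3′ on the strand of its gene.
Socs1: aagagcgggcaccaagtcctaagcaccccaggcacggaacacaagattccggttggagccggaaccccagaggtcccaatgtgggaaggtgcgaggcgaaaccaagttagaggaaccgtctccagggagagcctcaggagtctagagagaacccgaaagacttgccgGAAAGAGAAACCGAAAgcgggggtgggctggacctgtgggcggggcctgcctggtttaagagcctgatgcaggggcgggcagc
Socs3: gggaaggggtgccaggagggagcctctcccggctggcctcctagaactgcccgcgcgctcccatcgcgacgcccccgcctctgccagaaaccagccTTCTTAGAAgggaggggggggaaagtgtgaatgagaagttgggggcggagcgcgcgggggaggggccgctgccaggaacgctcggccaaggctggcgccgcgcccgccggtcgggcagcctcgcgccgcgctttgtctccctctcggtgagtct
Cish: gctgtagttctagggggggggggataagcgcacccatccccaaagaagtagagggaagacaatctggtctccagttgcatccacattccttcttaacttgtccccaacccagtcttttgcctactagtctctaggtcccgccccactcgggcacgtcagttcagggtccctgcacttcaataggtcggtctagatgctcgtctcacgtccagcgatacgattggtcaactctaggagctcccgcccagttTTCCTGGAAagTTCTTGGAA
The Socs1 stretch, chr16:10785537-10785786 on the minus strand, ends at the base before the start and holds 2 overlapping matches to GAAANNGAAA, at bases -83 to -74 and -77 to -68. The Socs3 stretch, chr11:117969367-117969616 on the minus strand, holds 1 match to TTCNNNGAA at bases -154 to -146. Its start lies inside the annotated Socs3 gene, which reaches further upstream. The Cish stretch, chr9:107296409-107296678 on the plus strand, holds 2 matches to TTCNNNGAA, at bases 1 to 9 and 12 to 20 of the transcript. The Socs4 window held none of the 3 motifs, and none of the 4 windows held TTCNNNNGAA. Of 32851 RefSeq windows of 300 bases, 8.30% held TTCNNNGAA, 6.95% held TTCNNNNGAA and 3.44% held GAAANNGAAA, and a match describes letters, not a bound site.

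On GRCm38.p6, RefSeq places Socs1 at chr16:10783808-10785536, Socs3 at chr11:117966079-117970336, Socs2 at chr10:95383903-95417321 and Cish at chr9:107296659-107302784. Socs4 lies at chr14:47276920-47296102, Socs5 at chr17:87107278-87137647 and Socs7 at chr11:97362292-97398542. The position of Socs6 is not reported here. The sources used here do not give the build behind the probe sets.

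Within groups, r between arrays was 0.989 to 0.997 over all probe sets. All 8 macrophage markers, among them Adgre1 and Csf1r, lay above the 40th percentile on every array. Their mean log2 level was 12.16 to 12.23 on M1 arrays, 11.68 to 11.80 with nutlin-3a, 11.83 to 11.89 with 10058F4, 11.60 to 11.71 on M2 arrays and 12.06 to 12.15 on M0 arrays. None of the 3 measured B cell markers lay above it on every array, nor did 4 of 5 mast cell and basophil markers, Gata2 being the exception. For dendritic cells it was 4 of 6 markers, with a mean level of 5.68 to 6.03 on M1 arrays, 5.28 to 5.34 with nutlin-3a, 5.35 to 5.44 with 10058F4, 5.52 to 5.69 on M2 arrays and 4.83 to 5.03 on M0 arrays. For neutrophils it was 3 of 5, with 5.61 to 5.88 on M1 arrays, 5.86 to 5.99 with nutlin-3a, 5.99 to 6.07 with 10058F4, 6.01 to 6.12 on M2 arrays and 6.27 to 6.47 on M0 arrays. For T and NK cells it was 4 of 6, with 5.04 to 5.20 on M1 arrays, 4.67 to 4.79 with nutlin-3a, 4.84 to 4.85 with 10058F4, 4.78 to 4.85 on M2 arrays and 4.65 to 4.76 on M0 arrays, and for stromal cells 3 of 5. As a sign of RNA quality, the beta-actin control probe set at the 3′ end exceeded the one at the 5′ end by 0.178 ± 0.044 in M1, 0.453 ± 0.035 in M2+nutlin-3a, 0.489 ± 0.025 in M2+10058F4, 0.382 ± 0.030 in M2 and 0.351 ± 0.054 in M0 cells (log2, SD, n = 3 each). The part of these values in the results below was not tested. In RNA from whole cultures, fewer cells of a type and less RNA per cell cannot be told apart.

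In M1 cells, 3 members rose against M0 (Socs1, Socs3 and Cish) and 4 fell (Socs2, Socs4, Socs5 and Socs6), while Socs7 did not pass the test. A member is said to rise or fall where the Benjamini-Hochberg adjusted p over all tested genes, from limma's moderated test on log2 values, was under 0.05. Of all tested genes, 33.6% rose and 39.1% fell in M1 cells, so most genes passed, and 7 of 8 members passing is not far from that background. The median difference was -0.22 over the 8 members and -0.0048 over all tested genes. With arrays centred on the median of the tested genes, a setting chosen after seeing the data, the median of all genes became 0.32, and 68.5% of the calls were rises, against 46.2% on the deposited values.

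In M2 cells, 4 members rose against M0 (Socs1, Socs2, Socs5 and Cish) and 3 fell (Socs4, Socs6 and Socs7), while Socs3 did not pass. The background was 12.7% rising and 18.4% falling, and the median difference was 0.47 over the members and -0.0037 over all genes. Rises were 40.8% of all calls, 51.4% with quantile normalization repeated and 61.0% with arrays centred on the tested genes. With arrays centred on all probe sets they were 33.2%. M1 and M2 cells are both set against the same 3 M0 arrays, so the 2 sets of values stand side by side and the direct contrast of M1 with M2 tests the difference. In that contrast 3 members were higher in M1 (Socs1, Socs3 and Socs7), 5 were lower (Socs2, Socs4, Socs5, Socs6 and Cish) and all 8 passed, beside a background of 28.1% higher and 36.5% lower. Higher genes were 43.5% of the calls there and 65.4% with arrays centred on the tested genes, which moved the median of all genes to 0.24. They were 40.1% with arrays centred on all probe sets and 50.9% with quantile normalization repeated.

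**Figure D1:**
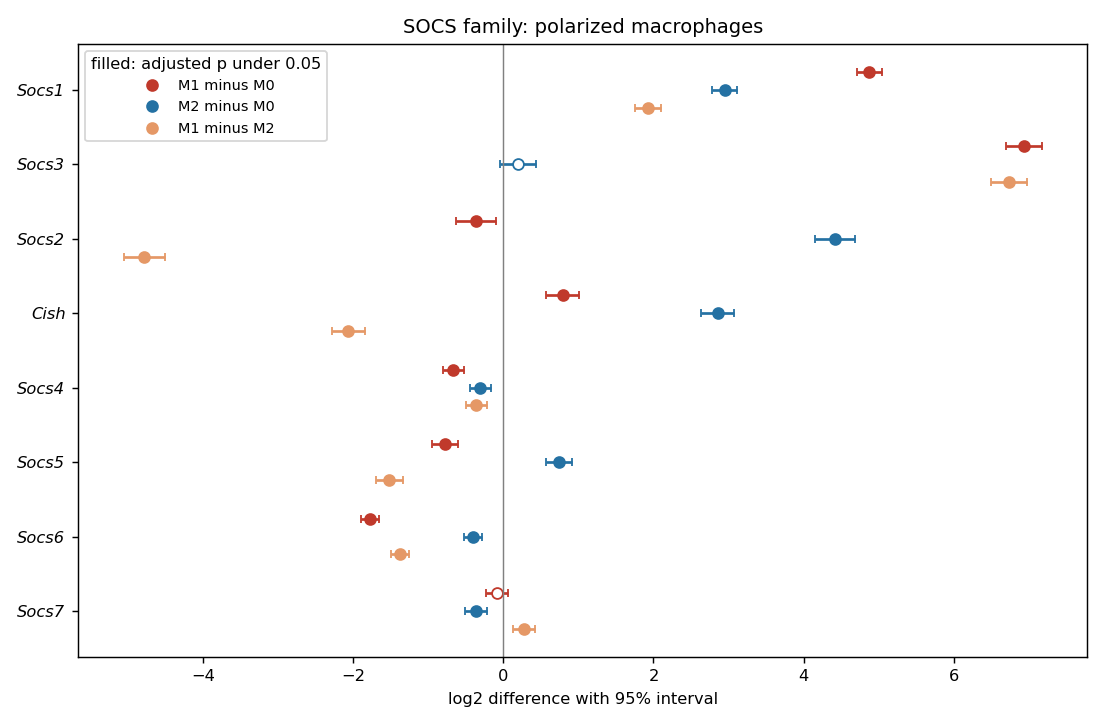
Log2 difference of each SOCS member with its 95% interval (horizontal axis) for M1 minus M0, M2 minus M0 and M1 minus M2, 3 arrays per group. Filled points have an adjusted p under 0.05. Socs3 lies at 6.93 in M1 against M0 and at 0.20 in M2 against M0, while Socs2 lies at -0.36 and 4.42.

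Socs1 and Socs3 are the members that block JAK activity itself. The Socs1 probe set (1450446_a_at) had log2 levels of 10.19, 10.07 and 10.30 in M1 cells, 8.36, 8.17 and 8.26 in M2 cells and 5.22, 5.37 and 5.35 in M0 cells. Every M1 array was above every M2 array, and every M2 array was above every M0 array. Socs1 was 29.3-fold higher in M1 than in M0 cells (log2 difference 4.87, SE 0.08, adjusted p = 7.3e-15) and 7.72-fold higher in M2 than in M0 cells (2.95, SE 0.08, adjusted p = 1.4e-11). The direct contrast put it 3.80-fold higher in M1 than in M2 cells (1.93, SE 0.08, adjusted p = 3.5e-11). It was thus above M0 in both polarized states. A link between its level and the 2 GAAANNGAAA matches of its promoter was not tested.

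Socs3, the gp130 brake, was high in the M1 group. Its probe set (1455899_x_at) had log2 levels of 12.38, 12.15 and 12.26 in M1 cells, 5.41, 5.63 and 5.55 in M2 cells and 5.31, 5.23 and 5.46 in M0 cells. The M1 arrays stood far above all others, and the M2 and M0 arrays overlapped. Socs3 was 122-fold higher in M1 than in M0 cells (log2 difference 6.93, SE 0.11, adjusted p = 7.3e-15) and 106-fold higher in M1 than in M2 cells (6.73, SE 0.11, adjusted p = 7.4e-15). Between M2 and M0 cells its difference was 0.20 with a 95% interval of -0.04 to 0.44 (adjusted p = 0.193). The other Socs3 probe sets, fitted with all 28869 probe sets tested, gave 5.09 (1416576_at) and 6.60 (1456212_x_at) in M1 against M0, so the size of the rise differed among probe sets and its sign did not.

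Cish and Socs2 belong to the branch of the family best known as STAT5 feedback genes, and SOCS2 is known as a brake on growth hormone signalling. Socs2 (1449109_at) had log2 levels of 4.19, 4.43 and 4.74 in M1 cells, 9.32, 9.14 and 9.24 in M2 cells and 4.67, 5.05 and 4.74 in M0 cells. The M2 arrays lay far above both other groups, and the M1 and M0 arrays overlapped. Socs2 was 21.3-fold higher in M2 than in M0 cells (4.42, SE 0.13, adjusted p = 1.7e-11) and 27.4-fold lower in M1 than in M2 cells (-4.78, SE 0.13, adjusted p = 4.6e-13). Only 1 of the 3 M1 arrays lay above its 40th percentile for Socs2, so the sizes of its M1 contrasts are not exact. The M0 mean was also low, at 4.82, though each M0 array lay above its 40th percentile.

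The lower Socs2 level of M1 against M0 cells was small (-0.36, SE 0.13, adjusted p = 0.0186) and rested on single arrays. It missed the threshold when M1 replicate 1 was left out (-0.23, adjusted p = 0.103) and when M0 replicate 2 was (-0.25, adjusted p = 0.101), and over its 17 alternatives the adjusted p ran between 0.00159 and 0.789. With the mean of all Socs2 probe sets its sign turned (0.12, adjusted p = 0.0652). A further Socs2 probe set with a low level (1442586_at, 4.82 in M1 and 4.42 in M0 cells) was higher in M1 cells (0.41, adjusted p = 0.013). The probe set 1418507_s_at did not pass in this contrast (-0.20, adjusted p = 0.22). It lay above the 40th percentile on 0 of 3 arrays in M1 and in M0 cells. Neither that value nor its 4.57 in M2 against M0 is therefore an exact size. In M2 against M0, the low-level probe sets 1442586_at (0.36, adjusted p = 0.055) and 1446085_at (0.49, adjusted p = 0.13) were not called.

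Cish (1448724_at) rose in both states. Its log2 levels were 6.18, 5.97 and 5.83 in M1 cells, 8.09, 8.06 and 8.01 in M2 cells and 5.33, 4.94 and 5.33 in M0 cells. The 3 groups did not overlap. Cish was 7.23-fold higher in M2 than in M0 cells (2.85, SE 0.10, adjusted p = 2.0e-10) and 1.73-fold higher in M1 than in M0 cells (0.79, SE 0.10, adjusted p = 9.6e-06). M1 cells had 4.18-fold less of it than M2 cells (-2.06, SE 0.10, adjusted p = 3.2e-10). A link between its level and the 2 TTCNNNGAA matches of its printed stretch was not tested.

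Socs4 and Socs5 form a further branch, known in other cell types to act on the EGF receptor. Socs5, also described as a brake on the IL4 receptor in T cells, had log2 levels of 6.62, 6.86 and 6.92 in M1 cells, 8.30, 8.31 and 8.35 in M2 cells and 7.62, 7.64 and 7.47 in M0 cells (1423350_at). The groups did not overlap, with M1 lowest and M2 highest. It was 1.71-fold lower in M1 than in M0 cells (-0.78, SE 0.08, adjusted p = 1.2e-06), 1.67-fold higher in M2 than in M0 cells (0.74, SE 0.08, adjusted p = 1.2e-05) and 2.86-fold lower in M1 than in M2 cells (-1.52, SE 0.08, adjusted p = 7.9e-10). The other Socs5 probe set (1423349_at) gave 0.72 in M2 against M0, but -0.06 in M1 against M0 (adjusted p = 0.58).

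Socs4 (1455142_at) moved little. It had log2 levels of 8.44, 8.57 and 8.55 in M1 cells, 8.87, 8.83 and 8.93 in M2 cells and 9.25, 9.19 and 9.11 in M0 cells. The 3 groups did not overlap. The difference was -0.66 (SE 0.07, adjusted p = 5.4e-07) in M1 against M0, -0.30 (adjusted p = 0.00291) in M2 against M0 and -0.36 (adjusted p = 0.000254) in M1 against M2. These falls belong to 1 probe set. A second one (1421273_at, 7.04 in M1 and 6.39 in M0 cells) was higher by 0.64 in M1 than in M0 (adjusted p = 9.8e-05). With the mean of all Socs4 probe sets the M1 difference from M0 became 0.13 (adjusted p = 0.152), that of M2 from M0 became -0.06 (adjusted p = 0.586) and that of M1 from M2 became 0.19 (adjusted p = 0.0445). The M1 difference from M2 also missed the threshold with arrays centred on the tested genes (-0.12, adjusted p = 0.12).

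Socs6 and Socs7 form the remaining branch, known for binding insulin receptor substrates. Socs6 (1450129_a_at) had log2 levels of 8.34, 8.44 and 8.35 in M1 cells, 9.71, 9.78 and 9.78 in M2 cells and 10.16, 10.18 and 10.13 in M0 cells. M0 cells were highest, M2 cells just below and M1 cells far lower, with no overlap. Socs6 was 3.43-fold lower in M1 than in M0 cells (-1.78, SE 0.06, adjusted p = 3.5e-12), 1.32-fold lower in M2 than in M0 cells (-0.40, SE 0.06, adjusted p = 0.000103) and 2.60-fold lower in M1 than in M2 cells (-1.38, adjusted p = 3.7e-11). All 3 Socs6 probe sets fell in M1 against M0, the others with differences of -2.74 (1435492_at) and -2.09 (1452764_at), and all 3 fell in M2 against M0.

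Socs7 (1455402_at) had log2 levels of 8.42, 8.31 and 8.42 in M1 cells, 8.07, 8.14 and 8.11 in M2 cells and 8.55, 8.41 and 8.45 in M0 cells. The M2 arrays were below all M1 and M0 arrays, and M1 and M0 overlapped. The difference was -0.36 (SE 0.07, adjusted p = 0.00104) in M2 against M0 and 0.27 (SE 0.07, adjusted p = 0.0025) in M1 against M2. In M1 against M0 it was -0.08 (95% interval -0.23 to 0.06, adjusted p = 0.268), but 0.24 (adjusted p = 0.00932) with arrays centred on the tested genes and 0.16 (adjusted p = 0.0339) with the mean of all Socs7 probe sets. That mean also ended the M2 call against M0 (-0.05, adjusted p = 0.567). The direction of Socs7 in M1 against M0 therefore depended on probe set and scaling. In M2 against M0 it was negative in all 17 alternatives (-0.40 to -0.05), which use the same probe set except for that mean. The other Socs7 probe sets gave -0.08 (1434834_at), 0.18 (1420766_at) and 0.04 (1438492_at) in M2 against M0, none called. The direction there thus also depended on the probe set.

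**Figure D2:**
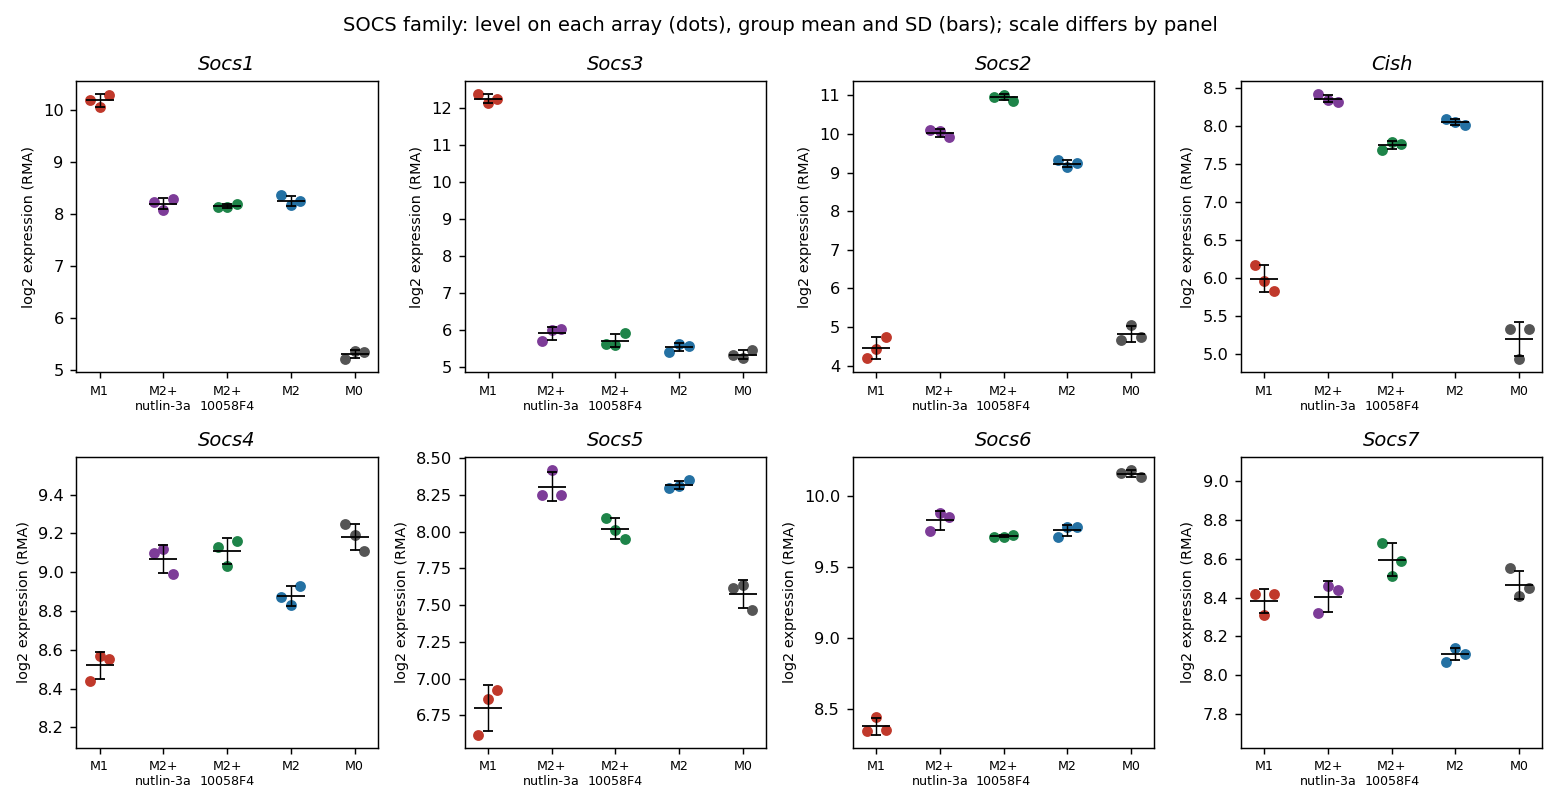
RMA log2 expression (vertical axis, scale differs by panel) of the 8 SOCS members on each array (dots), with group mean and SD (bars, n = 3). Socs1 and Socs3 were highest in M1, Socs2 was highest with 10058F4 at 10.95 and lowest in M1 at 4.45, and Socs6 was highest in M0.

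Next the agents were compared with M2. With nutlin-3a, 3 members rose (Socs2, Socs3 and Socs7) and 5 did not pass, beside a background of 9.56% rising and 5.85% falling. The count that fell with limma was 0, and it was also 0 at an unadjusted p under 0.05. The median difference was 0.24 over the members and 0.0085 over all genes. Rises were 62.0% of all calls, 41.2% with arrays centred on the tested genes, 73.4% with arrays centred on all probe sets and 51.5% with quantile normalization repeated. With 10058F4, 3 members rose (Socs2, Socs4 and Socs7), 1 fell (Socs5) and 4 did not pass, beside 10.6% rising and 10.2% falling, with a median of 0.07 over the members and -0.00039 over all genes. Both agents are set against the same 3 M2 arrays, and the direct contrast of nutlin-3a with 10058F4 had 1 member higher with nutlin-3a (Cish) and 1 lower (Socs2), beside 4.24% higher and 2.72% lower of all genes. Higher genes were 60.9% of those calls, 44.4% with arrays centred on the tested genes and 50.8% with quantile normalization repeated. They were 67.8% with arrays centred on all probe sets.

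Socs2 had the largest response to either agent among the members. Its log2 levels were 10.10, 10.08 and 9.92 with nutlin-3a, 10.96, 11.02 and 10.86 with 10058F4 and 9.32, 9.14 and 9.24 in M2 cells. The 3 groups did not overlap. Against M2 it was 1.74-fold higher with nutlin-3a (0.80, SE 0.13, adjusted p = 0.00079) and 3.29-fold higher with 10058F4 (1.72, SE 0.13, adjusted p = 4.5e-07). It was 1.89-fold lower with nutlin-3a than with 10058F4 (-0.92, SE 0.13, adjusted p = 0.000371). These 3 calls held in all 17 alternatives run for each.

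The other tested Socs2 probe sets differed in size and in part were not called. The probe set 1418507_s_at gave 0.86 with nutlin-3a and 1.83 with 10058F4 against M2, and -0.96 between the agents, each called. The probe set 1446085_at, at a low level of 4.64 with nutlin-3a, 5.98 with 10058F4 and 4.10 in M2 cells, rose by 1.89 with 10058F4 (adjusted p = 4.4e-05) and differed by 0.55 with nutlin-3a (adjusted p = 0.13). It lay above the 40th percentile on 0 of 3 M2 arrays, so these sizes are not exact. The probe set 1442586_at gave 0.04 with nutlin-3a (adjusted p = 0.87) and 0.43 with 10058F4 (adjusted p = 0.034) against M2. Between the agents it gave -0.38 (adjusted p = 0.12), which was not called. Of the 6 Socs2 probe sets, 2 were not tested because of low values. Against M0, the Socs2 probe set used was 37.2-fold higher with nutlin-3a and 70.2-fold higher with 10058F4. Its M0 mean was low, at 4.82, so these folds may not be exact. The beta-actin gap between 3′ and 5′ probe sets given above was also larger with both agents than in M2 cells, and its part here was not tested. The Gapdh gap was -0.281 with nutlin-3a, -0.272 with 10058F4 and -0.283 in M2 cells (SD 0.014, 0.0099 and 0.032).

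Socs1 differed little. It had log2 levels of 8.23, 8.09 and 8.29 with nutlin-3a, 8.14, 8.13 and 8.20 with 10058F4 and 8.36, 8.17 and 8.26 in M2 cells. The groups overlapped. The difference from M2 was -0.06 with nutlin-3a (95% interval -0.23 to 0.11, adjusted p = 0.668) and -0.10 with 10058F4 (-0.27 to 0.07, adjusted p = 0.418).

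Cish, the relative of Socs2, had 8.42, 8.35 and 8.32 with nutlin-3a, 7.69, 7.79 and 7.77 with 10058F4 and 8.09, 8.06 and 8.01 in M2 cells. Nutlin-3a arrays were above and 10058F4 arrays below all M2 arrays. Its difference from M2 was 0.31 with nutlin-3a (95% interval 0.09 to 0.53, adjusted p = 0.0608, 0.0115 to 0.177 over 17 alternatives) and -0.30 with 10058F4 (-0.52 to -0.08, adjusted p = 0.0548, 0.00651 to 0.163 over 17 alternatives), neither of which passed. With the replicate number as a block, the 10058F4 difference passed (adjusted p = 0.047). Between the agents Cish was 1.53-fold higher with nutlin-3a (0.61, SE 0.10, adjusted p = 0.00202). In that contrast Socs2 and Cish thus had opposite signs.

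Socs3 was low in all cells given IL4 and IL13. It had 5.71, 6.0 and 6.03 with nutlin-3a, 5.63, 5.58 and 5.92 with 10058F4 and 5.41, 5.63 and 5.55 in M2 cells. Nutlin-3a arrays were just above the M2 arrays, and 10058F4 arrays overlapped both. The nutlin-3a difference from M2 was 0.38 (SE 0.11, adjusted p = 0.0331). It was lost without M2 replicate 1 (adjusted p = 0.136) or replicate 3 (adjusted p = 0.0733), and without nutlin-3a replicate 2 (adjusted p = 0.12) or replicate 3 (adjusted p = 0.117), with 0.013 to 0.734 over 17 alternatives. The other Socs3 probe sets gave -0.09 and 0.25 there, neither called.

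Among the remaining members, Socs7 had 8.32, 8.46 and 8.44 with nutlin-3a, 8.68, 8.51 and 8.59 with 10058F4 and 8.07, 8.14 and 8.11 in M2 cells. All arrays with an agent were above all M2 arrays. The difference from M2 was 0.30 with nutlin-3a (SE 0.07, adjusted p = 0.00881) and 0.49 with 10058F4 (SE 0.07, adjusted p = 0.00014). The mean of all Socs7 probe sets ended both calls (0.05, adjusted p = 0.655, and 0.19, adjusted p = 0.0504). A second Socs7 probe set (1434834_at) rose by 0.30 with 10058F4 (adjusted p = 0.0062) and gave 0.00 with nutlin-3a. The probe set 1420766_at gave -0.16 with nutlin-3a and -0.09 with 10058F4, and 1438492_at gave 0.06 with each. None of these values was called, and the sign with either agent thus differed among probe sets.

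Socs4 had 9.10, 9.12 and 8.99 with nutlin-3a, 9.13, 9.03 and 9.16 with 10058F4 and 8.87, 8.83 and 8.93 in M2 cells. Both agents' arrays lay just above the M2 arrays. Its difference from M2 was 0.19 with nutlin-3a (95% interval 0.05 to 0.33, adjusted p = 0.0675, 0.0294 to 0.214 over 17 alternatives) and 0.23 with 10058F4 (SE 0.07, adjusted p = 0.0223). The 10058F4 call was lost without M2 replicate 1 (adjusted p = 0.0654) or 2 (adjusted p = 0.0801), and without 10058F4 replicate 1 (adjusted p = 0.0752) or 3 (adjusted p = 0.0922), with 0.00531 to 0.102 over 17 alternatives.

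Socs5 had 8.25, 8.42 and 8.25 with nutlin-3a, 8.09, 8.01 and 7.95 with 10058F4 and 8.30, 8.31 and 8.35 in M2 cells. The 10058F4 arrays were below all others, and nutlin-3a and M2 arrays overlapped. The difference from M2 was -0.01 with nutlin-3a (95% interval -0.19 to 0.17, adjusted p = 0.948) and -0.30 with 10058F4 (SE 0.08, adjusted p = 0.0202). The 10058F4 call was lost without M2 replicate 3 (adjusted p = 0.0662) and without 10058F4 replicate 2 (adjusted p = 0.0586) or 3 (adjusted p = 0.0825), with 0.00496 to 0.0825 over 17 alternatives. The second Socs5 probe set fell by 0.32 with 10058F4 (adjusted p = 0.029). Between nutlin-3a and 10058F4 the Socs5 difference was 0.29 (95% interval 0.11 to 0.46, adjusted p = 0.055, 0.0103 to 0.226 over 17 alternatives), which did not pass.

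Socs6 had 9.75, 9.88 and 9.85 with nutlin-3a, 9.71, 9.71 and 9.72 with 10058F4 and 9.71, 9.78 and 9.78 in M2 cells. The groups overlapped. Its difference from M2 was 0.07 with nutlin-3a (95% interval -0.05 to 0.19, adjusted p = 0.463) and -0.04 with 10058F4 (-0.16 to 0.08, adjusted p = 0.68). A second Socs6 probe set (1435492_at) was higher with both agents, by 0.39 with nutlin-3a (adjusted p = 0.03) and by 0.35 with 10058F4 (adjusted p = 0.038). The probe set 1452764_at was called with neither, at 0.14 with nutlin-3a (adjusted p = 0.54) and 0.0046 with 10058F4 (adjusted p = 0.99).

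**Figure D3:**
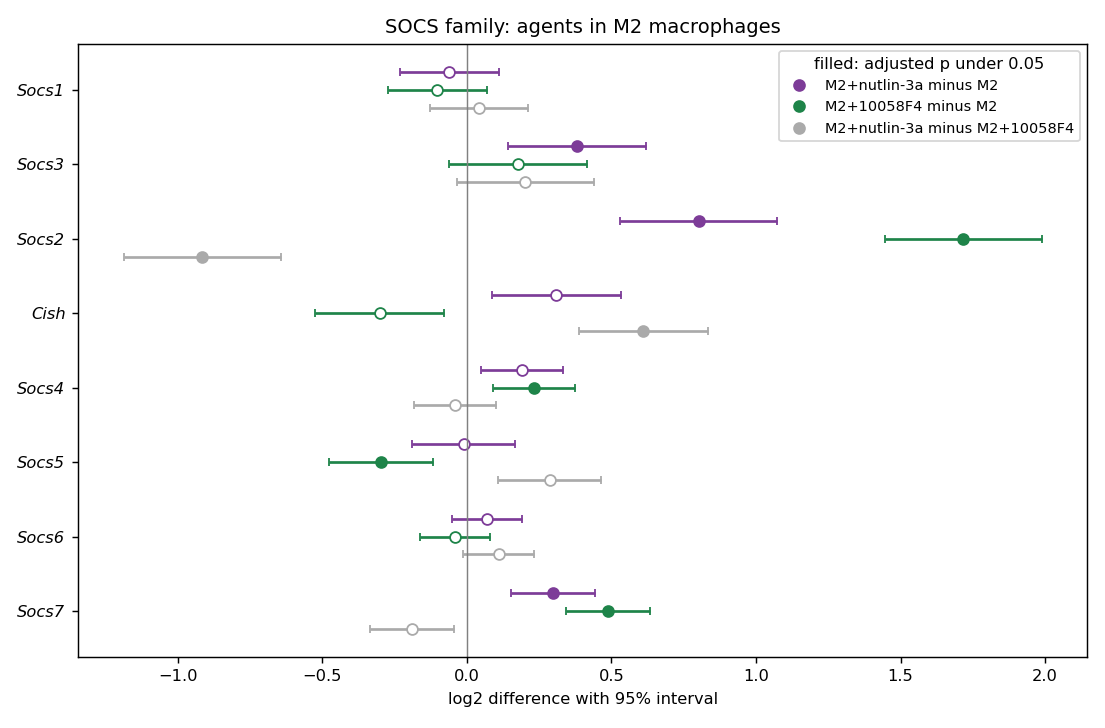
Log2 difference of each SOCS member with its 95% interval (horizontal axis) for M2+nutlin-3a minus M2, M2+10058F4 minus M2 and M2+nutlin-3a minus M2+10058F4, 3 arrays per group. Filled points have an adjusted p under 0.05, and Socs2 lies farthest from 0 in all 3 contrasts, at 0.80, 1.72 and -0.92.

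Set against M0 in place of M2, nutlin-3a cells had 5 members higher (Socs1, Socs2, Socs3, Socs5 and Cish) and 1 lower (Socs6), beside 13.3% and 15.6% of all genes. With 10058F4 there were also 5 higher (Socs1, Socs2, Socs3, Socs5 and Cish) and 1 lower (Socs6), beside 14.0% and 19.1% of all genes, where rises were 42.3% of all calls and 58.1% with arrays centred on the tested genes. With arrays centred on all probe sets, rises were 37.3% of the 10058F4 calls. The nutlin-3a and 10058F4 cells are both set against the same M0 arrays. Socs1 was 7.40-fold higher with nutlin-3a and 7.19-fold higher with 10058F4 than in M0 cells, and Cish 8.95-fold and 5.86-fold. Socs5 was higher than in M0 by 0.73 with nutlin-3a and by 0.45 with 10058F4. The small Socs3 differences from M0 were 0.58 with nutlin-3a (adjusted p = 0.00109) and 0.38 with 10058F4 (adjusted p = 0.017). The last one was lost without M0 replicate 2 (adjusted p = 0.0714) or 10058F4 replicate 3 (adjusted p = 0.0923), with 0.00953 to 0.201 over 17 alternatives. Neither of the other Socs3 probe sets passed against M0 with an agent. The Socs6 difference from M0 was -0.33 with nutlin-3a (adjusted p = 0.000476) and -0.44 with 10058F4 (adjusted p = 3.4e-05), and both passed. Of its gene-specific probe sets, 1435492_at gave -0.19 (adjusted p = 0.22) and -0.24 (adjusted p = 0.11), which did not pass, and 1452764_at gave -0.48 (adjusted p = 0.013) and -0.62 (adjusted p = 0.0021), which did.

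Ordering the 5 groups by mean level gave a different sequence for each member. Socs1 ran M1, M2, nutlin-3a, 10058F4 and M0, and the neighbours among the 3 groups given IL4 and IL13 did not differ beyond their spread. Socs3 ran M1, nutlin-3a, 10058F4, M2 and M0, and no neighbours below M1 differed beyond their spread. Socs2 ran 10058F4, nutlin-3a, M2, M0 and M1, and every neighbouring pair differed, the last pair only as far as described above. Cish ran nutlin-3a, M2, 10058F4, M1 and M0, with the first 3 not told apart as neighbours. Socs5 ran M2, nutlin-3a, 10058F4, M0 and M1, and Socs6 ran M0, nutlin-3a, M2, 10058F4 and M1. In both, the neighbours among the 3 groups given IL4 and IL13 did not differ. Socs4 ran M0, 10058F4, nutlin-3a, M2 and M1, with M1 alone below its neighbour, and Socs7 ran 10058F4, M0, nutlin-3a, M1 and M2, with M2 alone below its neighbour.

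**Figure D4:**
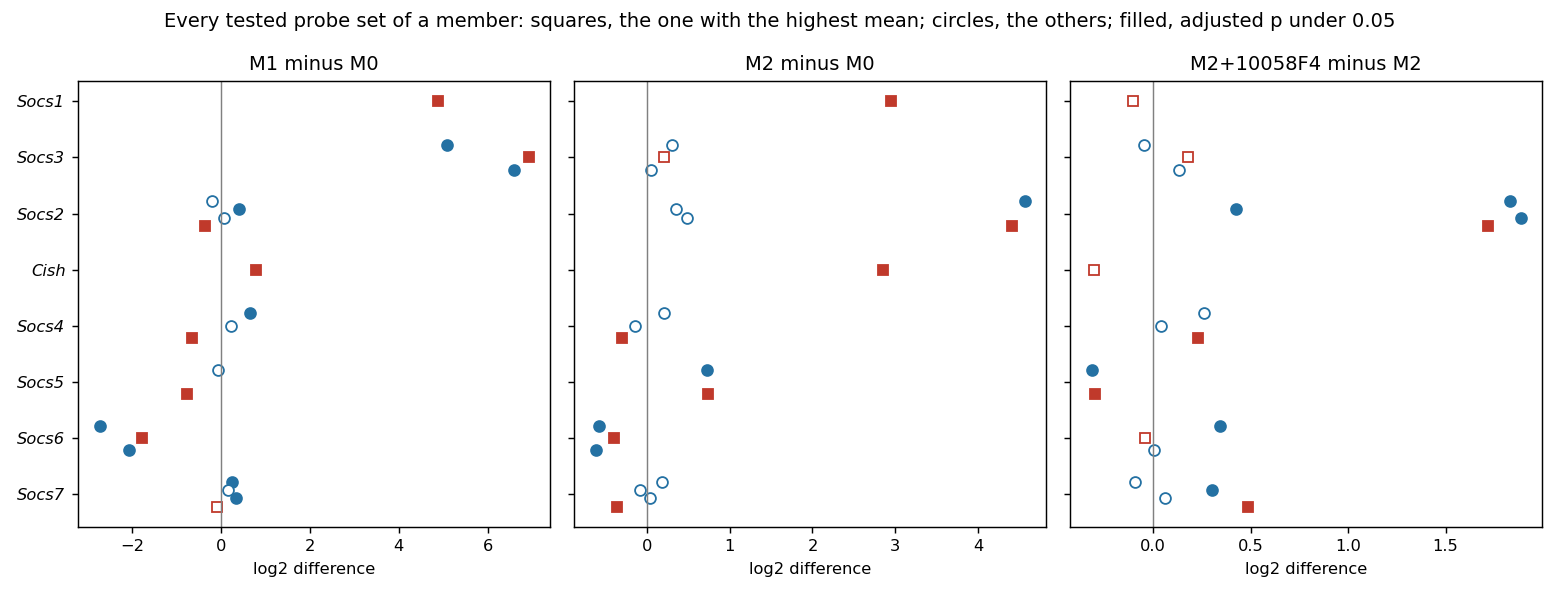
Log2 difference (horizontal axis) of each of the 21 tested probe sets of a SOCS member, by gene, for M1 minus M0, M2 minus M0 and M2+10058F4 minus M2. Squares are the probe sets with the highest mean and circles the others; filled symbols have an adjusted p under 0.05. The Socs3 probe sets all lie above 5 in M1 minus M0, while those of Socs4 lie between -0.66 and 0.64.

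Of the 24 probe sets that name a member alone, 21 were tested in a fit over all probe sets. Socs2 had 6, Socs4 and Socs7 had 4 each, Socs3 and Socs6 had 3 each, Socs5 had 2, and Socs1 and Cish had 1 each, so no second probe set stood beside the Socs1 and Cish values. Probe sets of Socs3, Socs5 and Socs6 had one sign in M1 against M0, and those of Socs2, Socs4 and Socs7 did not. The Socs5 probe set 1423349_at was near 0 there and not called.

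Genes that act around the SOCS proteins were taken from lists by role. Of all tested genes, 33.6% rose and 39.1% fell in M1 against M0, and 12.7% rose and 18.4% fell in M2 against M0. Against M2, 9.56% rose and 5.85% fell with nutlin-3a, and 10.6% rose and 10.2% fell with 10058F4. No result about a list is drawn from counts among 4 or 5 genes. Of the ligase partners of the SOCS box, Eloc rose in M1 against M0 (0.29, adjusted p = 0.028), Cul5 (-0.93, SE 0.16) and Rbx1 (-0.26, adjusted p = 0.025) fell, and Elob and Rnf7 did not pass. With limma, 0 of the 5 passed in M2 against M0 and 0 with either agent against M2. At an unadjusted p under 0.05 the counts were 0 in M2 against M0, 0 with nutlin-3a and 1 with 10058F4. Among the 4 kinases that SOCS proteins act on, 3 rose in M1 cells, led by Jak2 (2.20, SE 0.07) and Tyk2 (1.37, SE 0.07), and Jak1 fell by 0.16. In M2 cells Jak2 alone passed (1.78, SE 0.07, adjusted p = 5.7e-10). Of 5 tested STAT genes, Stat2 (2.77, SE 0.11) and Stat3 (1.81, SE 0.07) rose in M1 cells and the other 3 did not pass. In M2 cells Stat5a rose by 0.28, while Stat5b (-0.23) and Stat6 (-0.19) fell. Stat5a fell with nutlin-3a (-0.24, adjusted p = 0.048) and with 10058F4 (-0.50, adjusted p = 0.00035) against M2.

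Of 16 tested receptor chains, 5 rose and 9 fell in M1 cells, with a median of -0.27, and 7 rose and 4 fell in M2 cells, with a median of 0.26. Beside them, 33.6% of all genes rose and 39.1% fell in M1 cells, and 12.7% rose and 18.4% fell in M2 cells. The gp130 chain Il6st, on which SOCS3 acts, fell by 1.86 in M1 cells (SE 0.21) and rose by 1.38 in M2 cells (SE 0.21). The interferon-gamma receptor chain Ifngr1 fell by 1.5 in M1 cells and rose with 10058F4 against M2 (1.40, SE 0.06). The IL4 receptor chain Il4ra rose in M1 (1.36) and M2 cells (0.52). Il13ra1, a receptor chain for IL13, fell in M2 cells (-1.51, SE 0.20, adjusted p = 4.4e-05) and did not pass in M1 cells (0.13, adjusted p = 0.573). Lifr, the LIF receptor chain, rose with 10058F4 (2.03, SE 0.21) and with nutlin-3a (0.66, SE 0.21) against M2. All 8 tested JAK-STAT cytokines rose in M1 cells, among them Il6 (7.59), Il12b (5.57) and Il10 (2.59). Of 13 listed, 12 had a probe set and 8 passed the filter on low values. A gene high in M1 cells alone passes it through its 3 M1 arrays, so the filter favours this count. In M2 cells 1 of the 8 fell, Il15 (-0.97). The level of Il6 in M0 cells, 2.90, was below the 40th percentile, so its size is not exact.

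Of 12 other brakes on JAK-STAT signalling, 4 rose and 3 fell in M1 cells (median 0.03), and 2 rose and 3 fell in M2 cells (median 0.0020). The interferon receptor brake Usp18 rose in M1 (4.34, SE 0.14) and fell in M2 cells (-0.69, SE 0.14), and the phosphatase Ptpn2 rose in both (1.15 and 0.47). The phosphatase Ptpn6 fell against M2 with nutlin-3a (-0.85, SE 0.09) and with 10058F4 (-1.54, SE 0.09). These counts are near the shares of all genes given for the receptor chains.

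**Figure D5:**
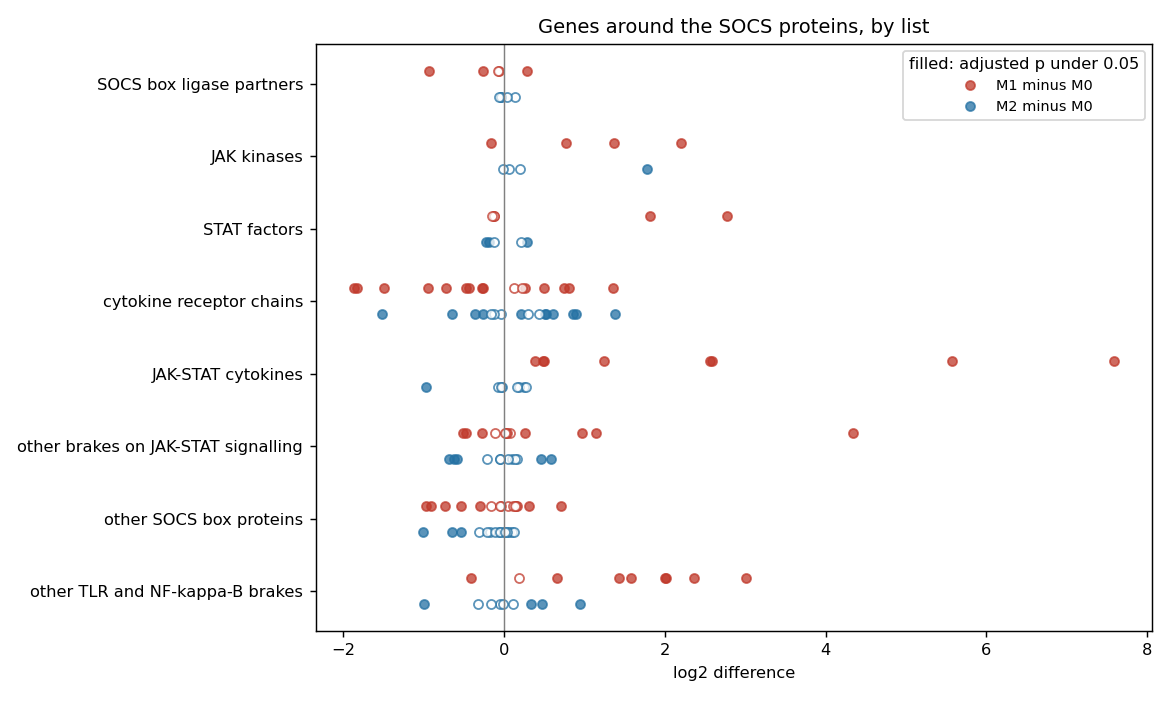
Log2 difference (horizontal axis) of each tested gene of 8 lists around the SOCS proteins, the SOCS family itself left out, for M1 minus M0 and M2 minus M0. Filled points have an adjusted p under 0.05. All 8 tested JAK-STAT cytokines lie to the right in M1 minus M0, where the filter on low values favours genes high in M1 alone. None of the 5 ligase partners is filled in M2 minus M0.

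For the 6 members whose group means spanned at least 1 on the log2 scale, the other tested genes with the most similar values over the 15 arrays were looked up by Pearson's r. The arrays fall into groups, so r is a description of shared group levels, given without p. Socs3 was closest to Il12b (r = 0.996), Fam3b (0.996) and Nos2 (0.996), the inducible nitric oxide synthase, all high in M1 cells. Socs2 was closest to Tmcc2 (0.993), Chil3 (0.989), a chitinase-like protein made by M2 macrophages, and Plekha3 (0.988). Chil3 had a mean log2 level of 10.36 with nutlin-3a, 10.81 with 10058F4 and 9.41 in M2 cells. Socs1 was closest to Rad23b (0.979), P4ha1 (0.975) and Cd274 (0.972), the ligand PD-L1, which had 13.16 in M1, 10.96 in M2 and 9.31 in M0 cells. Cish was closest to Tarbp2 (0.988), Nxf1 (0.976) and Pxdc1 (0.968). Socs5 was closest to Iscu (0.991), Oxct1 (0.991) and Vrk1 (0.989), and Socs6 to Aldh2 (0.997), Septin8 (0.996) and Pccb (0.996), genes that, like them, were lowest in M1 cells.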

How the data were processed

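Per the labels' protocols, biotin-labelled cRNA made with a T7-oligo(dT) primer from total RNA was hybridized to one-colour arrays. The deposited values are log2 expression, and the authors used RMA, per the submitters' processing notes, with no version given. Of 45101 probe sets, 64 are controls, 34945 name 1 gene, 932 several and 9160 none. Gene IDs of 34741 probe sets matched RefSeq GRCm38.p6. Array signals have no read depth, so the number of arrays limits the precision.

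The titles of the samples gave groups and replicate numbers. limma 3.58.1 in R 4.3.3 fitted 5 group means to all 15 arrays (lmFit, eBayes, 10 residual and 3.859 prior degrees of freedom), with Benjamini-Hochberg adjustment over the 13703 tested genes in each comparison; 4490 genes were left out by the filter on low values. The fit was tested on simulated data. The 8 members, the 8 lists of 86 further genes (82 with a probe set) and the marker lists were chosen with earlier results of these data known, and motifs were chosen after seeing them. Named were every member with some of its further probe sets, and any gene of a list of 5 or fewer. From each list, up to 4 called genes per comparison with the largest differences could be named. Not all of them were. A gene named for 1 comparison may also be given in another where unnamed genes differed more. The 3 genes most like each member that spans at least 1 log2 were named too.

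For arrays sharing a replicate number, deviations from the group mean correlated across genes, with r of 0.055 to 0.263 in M1 and M0 and 0.063 to 0.148 in M1 and M2, and between 0.23 and 0.47 in the other comparisons. All of the latter were over the pairing limit of 0.1, so the replicate block is printed there where it changed a call. Alternatives were no filter or one at the 60th percentile, the mean of all probe sets, only gene-specific probe sets by suffix, centring, repeated quantile normalization, a fit on the 6 arrays compared, array weights, the replicate block, eBayes with trend and robust settings, and each array left out. Centring on the tested genes and the fit of every probe set were added after seeing the data.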

Additional observations from a re-analysis of the deposited data

How the results depend on the processing

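Over the 8 comparisons, 41 of 64 member differences kept their side of the threshold under every alternative run. Of these, those that passed also kept their sign, while some that did not pass changed it. Among 1080 alternative values, 59 changed a call or turned a called sign. With the mean of all probe sets, signs turned in M1 against M0 for Socs2 (0.124), Socs4 (0.128) and Socs7 (0.163) and in M1 against M2 for Socs4 (0.189). Socs7 also turned in M1 against M0 with arrays centred on the tested genes (0.242). With gene-specific probe sets, Socs3 turned with nutlin-3a against M2 (-0.0915) and Socs6 with 10058F4 against M2 (0.345, called). These probe sets have other levels, and the cause was not tested. With either agent against M0, 6 called members became 3 with gene-specific probe sets, where Socs1 has no such probe set. With nutlin-3a against M2, where 3 members were called, the count was 5 with the stricter filter, 5 with arrays centred on their median, 5 with array weights and 1 with the mean of all probe sets. With 10058F4 against M2, 4 members became 2 with the mean of all probe sets and 2 to 3 with an array left out, 2 being without 10058F4 replicate 3. Between the agents, 2 became 4 with array weights. The genes called with nutlin-3a against M2 were 2112, 3302 with array weights and 1243 to 1555 with an array left out. With 10058F4 against M2 they were 2858, and 4311 with array weights. Between the agents they were 954, 1483 with those 6 arrays alone, 2044 with array weights and 567 to 722 with an array left out; the cause was not tested.

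With the replicate block, Cish passed in 10058F4 against M2 (-0.302, adjusted p = 0.047), and no other member call changed. For the M1 comparisons with M0 and with M2 not every pair was over the limit. The block gave 10190 called genes for 9963 with M0 and 9117 for 8860 with M2, and every array correlated best with its own number, a hint from the data and not the design. Low signal limits Socs2 in M1 cells and several further probe sets. Levels were also low, though above the 40th percentile on every array, for Socs3 outside M1 cells (5.33 to 5.91). The same holds in M0 cells for Socs2 (4.82), Cish (5.20) and Socs1 (5.31), so their folds against M0 may not be exact.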

Other observations

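Proteins other than the SOCS family that carry a SOCS box were also measured, as 15 of 17 listed genes, among them the Asb, Spsb, Wsb and Rab40 families. In M1 against M0, 2 rose and 5 fell with a median of -0.04, beside 33.6% rising and 39.1% falling among all genes. In M2 against M0, 0 rose with limma (0 also at an unadjusted p under 0.05) and 3 fell, with a median of -0.06, beside 12.7% and 18.4%. The largest changes in M1 cells were Spsb4 (-0.97, SE 0.23), Wsb2 (-0.91, SE 0.08), Rab40c (-0.74, SE 0.08) and Asb6 (0.71, SE 0.12). In M2 cells Spsb4 (-1.01, SE 0.23), Rab40c (-0.64, SE 0.08) and Wsb1 (-0.53, SE 0.10) fell. With nutlin-3a against M2, Asb13 (0.46) and Rab40c (0.36) rose. With 10058F4 against M2, Spsb4 (0.98) and Asb1 (0.28) rose while Spsb2 (-0.37) and Rab40c (-0.24) fell.

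Brakes on Toll-like receptor and NF-κB signalling, the pathway that LPS engages, were measured as 9 of 10 listed genes. In M1 against M0, 7 rose and 1 fell with a median of 1.58, beside 33.6% rising and 39.1% falling among all genes. The rises were led by the phosphatase Dusp1 (3.01, SE 0.13), the ubiquitin editor Tnfaip3 (2.36, SE 0.10), the mRNA-decay protein Zfp36 (2.02, SE 0.07) and the kinase-like Irak3 (2.0, SE 0.14). In M2 against M0, 3 rose and 1 fell, beside 12.7% rising and 18.4% falling among all genes. There Zfp36 was up by 0.95 and Irak3 was at -1.0. Dusp1 rose against M2 with nutlin-3a (1.07, SE 0.13) and with 10058F4 (2.94, SE 0.13), and was lower with nutlin-3a than with 10058F4 (-1.87, SE 0.13, adjusted p = 3.5e-07).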
